A study of Mus musculus with 60 samples.

Results

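Ribosomes tagged in neurons labelled as aPVT projectors were compared with bulk tissue from the medial prefrontal cortex (mPFC) of the group labelled NS. That comparison rests on 12 of the 60 libraries of the series, 6 from the pulldown (NS IP) and 6 from bulk tissue (NS Input), chosen by their labels. All were from DBA2/J mice, an inbred strain, expressing GFP-L10a, a ribosomal protein of the large subunit that carries a fluorescent tag. IP libraries hold RNA that came down with an anti-GFP antibody, and Input libraries hold bulk mPFC RNA taken with no antibody. The other 48 libraries are IP and Input of the groups SA, SA:ANH, ANH and RES, again 6 each. The series describes social defeat stress, and the labels neither spell out the group names nor say which groups were defeated. They also do not give the age or sex of the mice, how the tag was brought into the projecting neurons, or whether a library came from 1 animal or from pooled tissue. P-values here rest only on the variation among libraries of a group and fraction, estimated from all 60 libraries together. Part of that variation may be technical.

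Translating ribosome affinity purification recovers messenger RNA together with the ribosomes that are reading it. When the tag is restricted to a set of neurons, RNA that is bound in those cells is kept and RNA of untagged neighbours is washed away, together with RNA that no cytosolic ribosome binds, such as transcripts of the mitochondrial genome. Pyramidal neurons of cortical layers 5 and 6 send the main output of the prefrontal cortex to the thalamus, and aPVT, which the labels do not spell out, is the usual short form for the anterior paraventricular nucleus of the thalamus, a midline region linked to arousal and motivation. A difference between the fractions can therefore come from cell type, from ribosome binding or from the separate handling of the fractions, and these cannot be told apart here. In the same way, fewer cells of a type in the sample and less RNA per cell cannot be told apart in bulk tissue.

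The 12 libraries held 19116938 to 26054283 counts each, and log CPM (counts scaled to a common library size with TMM factors) correlated at 0.965 to 0.973 between libraries of a fraction. The first principal component took 62.6% of the variance and separated the fractions. On the second, which took 5.07%, replicates 1 (67.8) and 5 (-63.0) of NS IP stood apart. The other NS IP libraries lay between -4.32 and 4.58 on it. A feature of the bulk libraries is given before the results. Transcripts of fat tissue were found in all 6 NS Input libraries. Fabp4, a fatty acid carrier of adipocytes, ran from 27.1 to 29.5 CPM with a median of 28.0, against 0.180 CPM at most in the 24 Input libraries of the other groups and 0.438 CPM at most in NS IP. Ucp1, the uncoupling protein of brown fat, had a lowest value of 14.8 CPM and a median of 17.2 CPM in NS Input and reached at most 0.216 CPM in the other Input libraries. Of 12 fat genes looked up after these values were seen, 11 had every NS Input library above all 24 other Input libraries. The part that this signal plays in the falls was not tested, and the comparison was repeated against the Input libraries of the other groups. Those libraries were not free of every gene on the list: Cidea, a lipid droplet protein, ran from 7.12 to 11.5 CPM there and from 24.3 to 32.9 CPM in NS Input.

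Across the transcriptome, 18937 genes were tested with edgeR's quasi-likelihood test. After Benjamini-Hochberg adjustment at 0.05, 4584 genes were higher in NS IP (24.2% of those tested) and 5423 were lower (28.6%). The falls were the deeper changes: 3179 genes fell at least 2-fold and 846 rose at least 2-fold. The median log2 fold change over all tested genes was -0.08. Counts of gene groups below stand beside these shares.

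**Figure D1:**
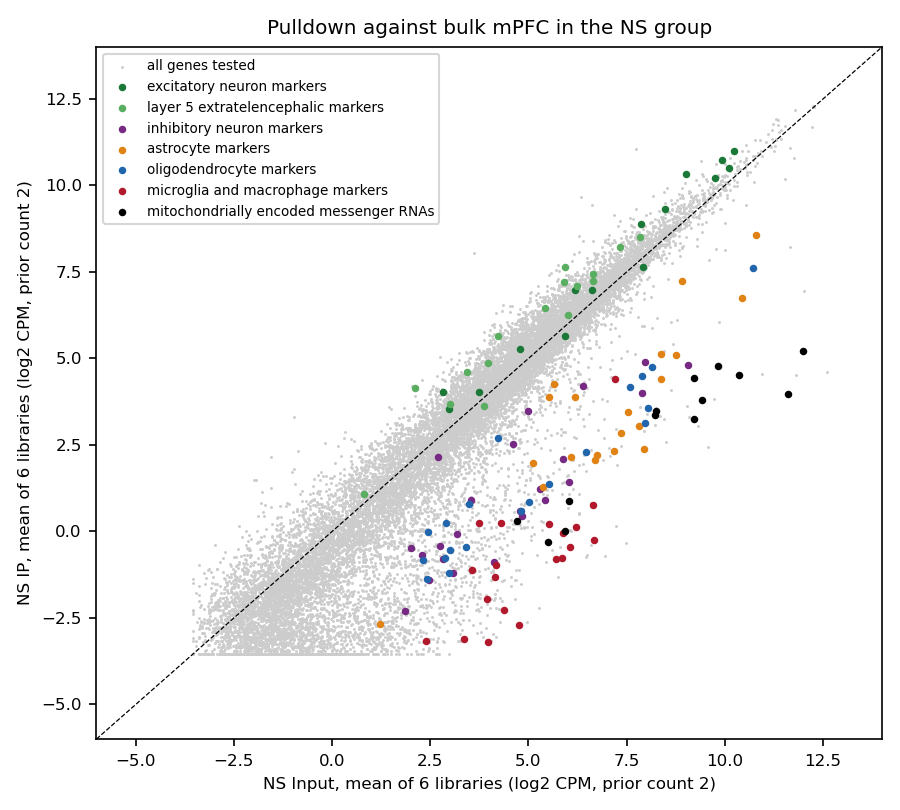
Mean log2 CPM of the 6 NS Input libraries (x axis) and the 6 NS IP libraries (y axis), with a prior count of 2, for the 18937 genes tested, 1 point per gene; the dashed line marks equal levels. Most excitatory markers lie above the line, while glial, inhibitory and mitochondrially encoded genes lie below it.

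The RNAs with the greatest losses included Bc1, a short RNA made by RNA polymerase III that is carried into dendrites, acts as a repressor of translation and encodes no protein. It lies at chr7:144914470-144914637 on the plus strand (GENCODE M21, GRCm38) and spans 168 bases. Its sequence is shown because it is a cytoplasmic RNA of neurons that is not read by ribosomes, and the capitals mark its internal adenosine stretch of 23 bases:
Bc1: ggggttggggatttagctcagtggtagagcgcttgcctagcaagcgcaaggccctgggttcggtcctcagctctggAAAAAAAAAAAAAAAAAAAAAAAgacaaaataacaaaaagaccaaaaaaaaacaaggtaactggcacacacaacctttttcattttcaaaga
In NS Input, Bc1 ran from 140 to 212 CPM with a median of 182, and in NS IP from 0.331 to 1.62 CPM with a median of 0.694. All 6 IP libraries lay far below all 6 Input libraries, and the log2 fold change of Bc1 was -7.89 ± 0.27 (SE; edgeR adjusted p = 1.1e-34, n = 6 and 6). Rn7s1 and Rn7s2, near-identical copies of the signal recognition particle RNA whose reads cannot be assigned with certainty, had medians of 1.12 and 0.651 CPM in IP against 154 and 92.1 CPM in Input, and were looked up after the values of Bc1 were seen.

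The tag itself was checked first. Rpl10a (chr17:28328471-28331033, GRCm38), the gene of the tagged protein, ran from 348 to 387 CPM in NS IP with a median of 377, and from 69.6 to 83.1 CPM in NS Input with a median of 78.5. The fractions did not overlap, and Rpl10a rose by 2.26 ± 0.06 (log2, SE; adjusted p = 4.4e-39 by edgeR). Reads of the native gene and of the tag's own messenger RNA cannot be told apart in these counts. The other ribosomal protein genes did not rise with it: of 78 tested, 5 rose, 47 fell and 26 did not pass, with a median log2 fold change of -0.21. The furthest of them were Rpl32 (-0.92 ± 0.07), Rpl13a (-0.65 ± 0.05) and Rpl37a (-0.62 ± 0.08) among the falls, and Rps12 (0.26 ± 0.11) was the highest of the rises, a call that was lost with other scalings. Many of these genes have processed pseudogenes that can share their reads.

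Transcripts of the mitochondrial genome, which are translated inside the organelle by its own ribosomes, were nearly absent from the pulldown. They took 0.0177% to 0.0237% of the counts in NS IP and 1.80% to 2.10% in NS Input. All 13 mitochondrially encoded messenger RNAs fell, by 4.40 (mt-Nd4l) to 7.64 (mt-Co3) on the log2 scale. For mt-Co1, a core subunit of cytochrome oxidase, the levels were 28.8 to 47.3 CPM in IP and 3886 to 4242 CPM in Input. The mitochondrial 16S ribosomal RNA mt-Rnr2 had a median of 22.9 CPM in IP and 6232 CPM in Input. Nuclear copies of mitochondrial sequence in the genome can share some of these reads. Proteins that mitochondria import are made on cytosolic ribosomes, and their genes stood near 0 at the median: the 78 mitochondrial ribosomal protein genes had a median of 0.01, and the 84 nuclear-encoded genes of the respiratory chain and ATP synthase had a median of -0.02, with 14 higher and 24 lower. Of 6 members of the latter list that fell at least 2-fold, Cox8b and Cox7a1 are also among the 12 fat genes.

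Markers of excitatory neurons were higher in the pulldown. Of 15 markers of excitatory cortical neurons, 13 rose and 2 fell, with a median log2 fold change of 0.56. Slc17a7, which loads glutamate into vesicles, ran from 1872 to 2185 CPM in NS IP (median 2055) and from 1149 to 1263 CPM in NS Input (median 1204). The libraries of the fractions did not overlap, and the rise was 0.76 ± 0.04 (adjusted p = 5.6e-24 by edgeR). Mef2c, a transcription factor regulated by activity, rose by 1.33 ± 0.04, and Nrgn, a calmodulin-binding protein of dendrites, by 0.81 ± 0.06. The 2 that fell were Tbr1 (-0.29 ± 0.06), a transcription factor of deep-layer and especially layer 6 neurons, and Nptx1 (-0.28 ± 0.05), a secreted pentraxin of synapses.

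The markers of projection classes did not move as a block. Those of layer 5 extratelencephalic neurons, which send axons out of the telencephalon, were the group of layer markers with the highest median: 14 of 16 rose, 0 fell, and the median was 0.88. Bcl11b, a transcription factor that specifies subcerebral projection neurons, ran from 192 to 213 CPM in IP and from 54.9 to 67.1 CPM in Input, with the fractions well apart. Bcl11b rose by 1.72 ± 0.08 (adjusted p = 1.6e-28 by edgeR), while Fezf2, the selector gene of the same class, rose by 0.79 ± 0.06. Npr3, a natriuretic peptide receptor, rose by 2.06 ± 0.19 from a median of 4.17 CPM in Input, Chst8, a sulfotransferase, by 1.40 ± 0.09 and Pou3f1 by 1.29 ± 0.06. The 2 members that did not pass were Sulf1, at 12.1 CPM in IP and 13.6 CPM in Input at the median, and Stac.

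Markers of layer 6 corticothalamic neurons, which also project to the thalamus, were lower. Of 11 corticothalamic markers tested, 0 rose and 8 fell, with a median of -1.31. Tle4, a corepressor used to mark these neurons, ran from 19.5 to 23.7 CPM in NS IP (median 20.9) and from 47.2 to 57.7 CPM in NS Input (median 53.8). The fractions were fully separate and the log2 fold change of Tle4 was -1.31 ± 0.11 (edgeR adjusted p = 1.4e-15). Syt6, a synaptotagmin, fell by 2.81 (SE 0.27), Rprm by 1.62 (SE 0.08) and Foxp2, a transcription factor, by 0.99 (SE 0.30). Ntsr1, the neurotensin receptor whose Cre line is used to mark this class, did not pass, with means of 10.4 CPM in IP and 8.52 CPM in Input. For the deepest cells, layer 6b and the subplate remnant, 4 of 6 markers fell, among them Cplx3 by 4.44 (SE 0.24) and Moxd1 by 5.12 (SE 0.63). The 2 that rose were Kcnab1 and Nr4a2, and the latter is also an activity-regulated gene. Near-projecting markers of layer 5 were mixed, with 2 of 6 higher and 2 lower.

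Intratelencephalic and upper-layer markers, which belong to neurons that connect cortical areas to each other, were split. Of 16 tested, 7 rose, 5 fell and 4 did not pass, with a median of 0.07. Mdga1, an adhesion protein, rose by 1.26 and Etv1, a transcription factor of layer 5, by 0.88 ± 0.06. Rorb, the marker of layer 4, fell by 0.60 (SE 0.15) and Cux2, of layers 2 to 4, rose by 0.30 ± 0.09. Set against the label of aPVT projectors, the summed markers of layer 5 extratelencephalic neurons stood at 175% to 190.1% of bulk, and those of near-projecting neurons at 161% to 174%. The intratelencephalic list stood at 116% to 128%, layer 6b at 59.3% to 66.6% and layer 6 corticothalamic neurons at 45.8% to 51.4%. Abundant members weigh most in such sums, and the medians gave another order. The median log2 fold change was -3.42 for layer 6b, below the -1.31 of layer 6 corticothalamic markers. For near-projecting markers it was -0.18, below that of the intratelencephalic list.

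**Figure D2:**
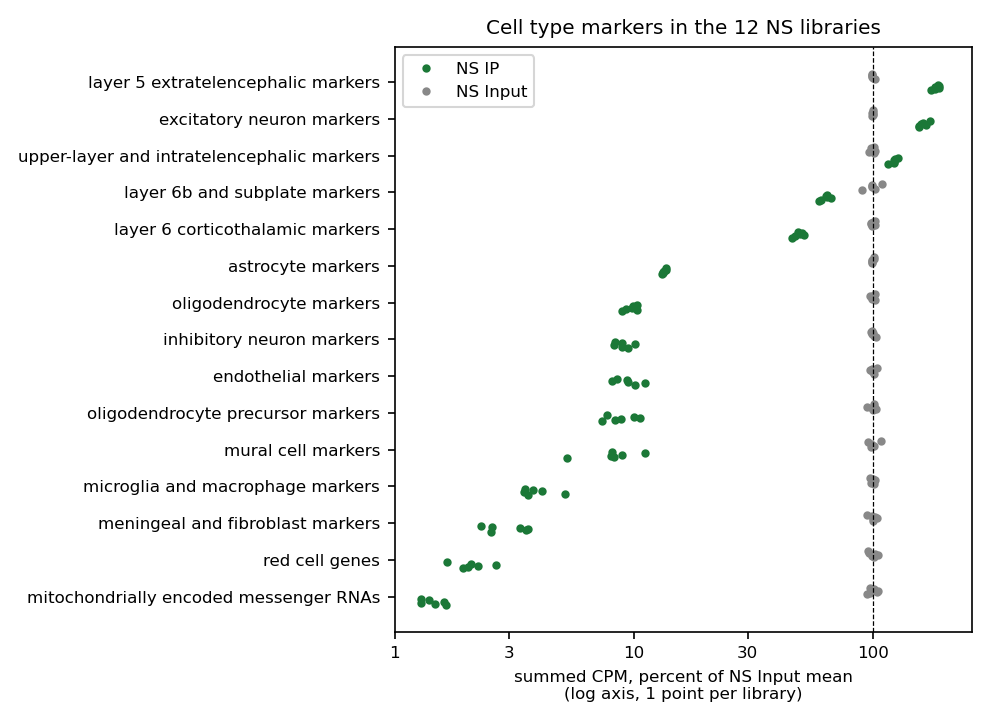
Summed CPM of each marker list in each of the 12 NS libraries as a percent of its mean in NS Input (x axis, log scale), with IP in green and Input in grey. Of the 15 lists drawn, the 3 at the top have every IP library above 100%, and red cell genes and mitochondrially encoded messenger RNAs have every IP library under 3%.

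Inhibitory neurons were strongly depleted. Of 23 markers, 22 fell, all at least 2-fold, 0 rose, and the median was -3.81. Summed over the list, IP libraries held 125 to 152 CPM and Input libraries 1481 to 1546 CPM, so that IP kept 8.27% to 10.1% of the bulk level. Gad1, an enzyme of GABA synthesis, ran from 12.9 to 22.1 CPM in IP (median 14.3) and from 220 to 252 CPM in Input (median 233). It fell by 3.83 (SE 0.14, adjusted p = 5.5e-33 by edgeR). Among the subclass markers, Sst fell by 4.25 (SE 0.06), Vip by 4.61 (SE 0.17) and Pvalb by 3.81 (SE 0.11). Gad2, the second GABA-synthesizing enzyme, kept 21.8% of its bulk level, with 18.9 CPM at the median in IP. Ndnf, a marker of neurogliaform cells, was the member that did not pass (adjusted p = 0.15).

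Glial, vascular and blood markers were depleted. All 20 astrocyte, 20 oligodendrocyte, 10 oligodendrocyte precursor, 20 microglia and macrophage, 14 endothelial, 10 mural, 10 meningeal and fibroblast and 5 red cell genes tested fell. The medians were -3.94 for astrocytes, -3.39 for oligodendrocytes, -4.02 for their precursors, -5.79 for microglia, -4.98 for endothelium, -5.25 for mural cells, -4.89 for meninges and -5.79 for red cells. Only 1 member of these lists, from the mural cell list, had 0 counts in all NS IP libraries. Summed levels kept in IP were 13.2% to 13.6% of bulk for astrocytes, 8.92% to 10.4% for oligodendrocytes and 3.48% to 5.18% for microglia.

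Within these lists the depth of the fall differed between genes. Mbp, myelin basic protein, ran from 177 to 214 CPM in IP and from 1632 to 1714 CPM in Input, and fell by 3.09 (SE 0.04). Among astrocyte genes, Mlc1, a membrane protein of astrocyte endfeet, fell by 5.55, while Slc1a2, the main glutamate transporter of these cells, fell by 1.68 (SE 0.06) and kept 141 to 158 CPM in IP. C1qa, the complement component made by microglia, ran from 0.289 to 1.14 CPM in IP and from 60.1 to 75.5 CPM in Input. P2ry13, a purine receptor of microglia, had a median of 0 in IP and 16.5 CPM in Input. Pdgfra, the defining receptor of oligodendrocyte precursors, likewise had a median of 0 in IP and ran from 7.95 to 19.2 CPM in Input. Rgs5, a marker of pericytes, fell least among the mural genes, by 0.68 (SE 0.18), with 7.05 to 11.2 CPM in IP.

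**Figure D3:**
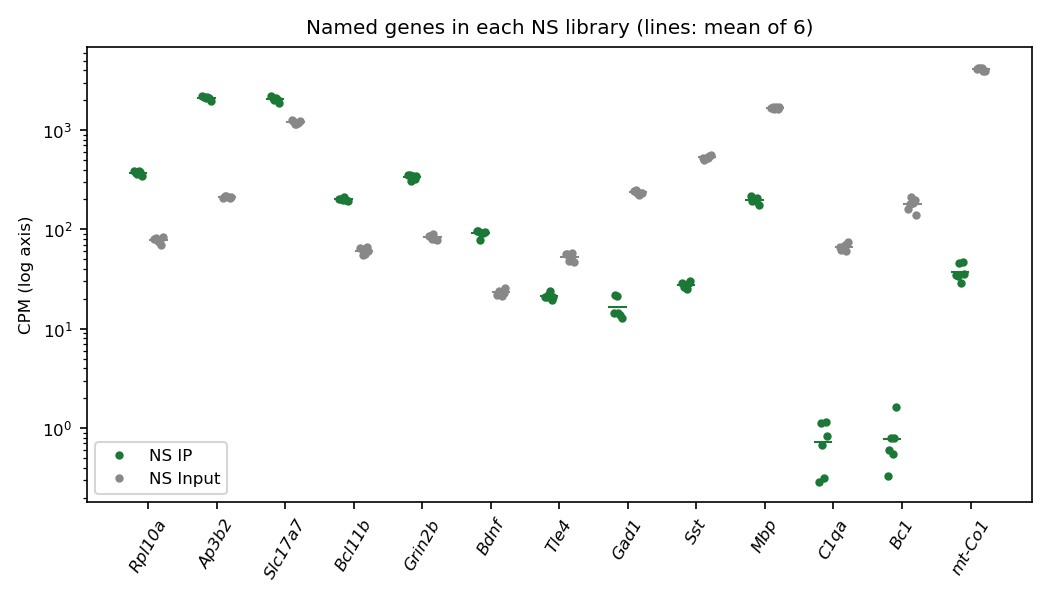
CPM of 13 named genes (y axis, log scale) in each NS IP library (green) and NS Input library (grey), with a line at the mean of 6. Every gene shown has all 6 libraries of a fraction on one side of the other fraction.

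The 15 largest rises among genes with at least 10 CPM spanned several functions. Ap3b2 (chr7:81460399-81493925, GRCm38), the neuronal subunit of the adaptor complex that sorts cargo to synaptic vesicles, ran from 1953 to 2214 CPM in IP and from 205 to 217 CPM in Input, a rise of 3.32 ± 0.04 (adjusted p = 4.3e-56 by edgeR). Clasp2 (chr9:113741473-113919682), which stabilizes the growing ends of microtubules, rose by 2.81 ± 0.06, with medians of 684 and 104 CPM. In neither gene did the fractions overlap, and both were also higher in IP in each of the other 4 groups, by 2.38 to 4.02 for Ap3b2 and 1.79 to 3.32 for Clasp2. Col11a1, a fibrillar collagen chain, rose by 3.97 ± 0.46 from a median of 0.531 CPM in Input. Inhba, a subunit of activin, rose by 2.26 ± 0.16 and Bdnf, a neurotrophin, by 1.98 ± 0.07.

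Receptor genes for glutamate went in both directions. Of 6 NMDA subunits tested, 3 rose, 2 fell and 1 did not pass. NMDA receptors need an obligatory GluN1 subunit, encoded by Grin1, and take their kinetics from the GluN2 subunits. Grin2b (chr6:135713233-136173511) ran from 310 to 355 CPM in IP and from 78.0 to 88.9 CPM in Input, with medians of 346 and 83.1. Grin2b rose by 2.03 ± 0.06 (adjusted p = 1.9e-37 by edgeR), which placed it among the 15 largest rises, and Grin2a rose by 1.32 ± 0.08. Grin1 rose by 0.18 ± 0.05, with 234 to 272 CPM in IP and 205 to 240 CPM in Input, so its fractions overlapped. Grin2c, the subunit known from astrocytes and cerebellum, fell by 4.23 (SE 0.42), and Grin2d, known from interneurons, fell by 1.23 (SE 0.17). Per kilobase of the deposited exon length, the IP level of Grin1 (58.6 CPM per kb) was still above those of Grin2b (14.1) and Grin2a (6.90).

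AMPA receptors carry most fast excitation, and 8 of 13 of their subunit and auxiliary genes rose while 1 fell. Gria3 rose by 1.79 ± 0.06, Gria2, which makes the channel impermeable to calcium, by 1.47 ± 0.04, Gria4 by 0.62 ± 0.09 and Gria1 by 0.53 ± 0.04. Gria2 ran from 506 to 580 CPM in IP and from 172 to 207 CPM in Input, and the fractions did not overlap. Cacng4, an auxiliary subunit, fell by 0.93 (SE 0.13), while Cacng3 rose by 0.75 ± 0.05. Of 5 kainate receptor genes, Grik2 (0.80) and Grik5 (0.68) rose, Grik1 fell by 2.60 and 2 did not pass. Of 7 metabotropic receptors, 4 rose, 1 fell and 2 did not pass. Grm5 of group I rose from 41.2 to 47.0 CPM in Input to 80.8 to 97.7 CPM in IP, and Grm3, also known from astrocytes, fell by 0.34 (SE 0.08).

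GABA receptor genes were mostly higher, with 11 of 14 up, 2 down and a median of 0.60. Gabrb1 rose by 1.45 ± 0.06, from 59.6 to 63.7 CPM in Input to 161 to 175 CPM in IP. Gabra2 rose by 1.19 ± 0.07. The 2 that fell were Gabrd (-0.27 ± 0.08), a subunit of extrasynaptic receptors, and Gabrg1 (-1.01 ± 0.26).

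**Figure D4:**
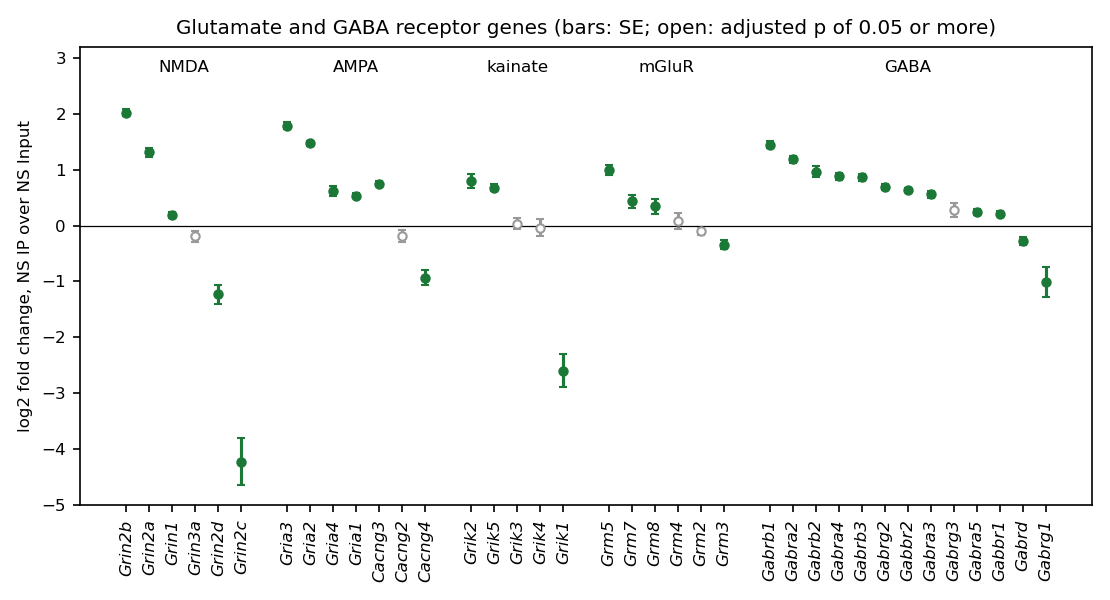
Log2 fold change of NS IP over NS Input (y axis) for selected genes of NMDA, AMPA, kainate, metabotropic glutamate and GABA receptors, with bars of 1 SE; open points did not pass at an adjusted p of 0.05. Grin2b, Gria3 and Gria2 are the highest points of the ionotropic glutamate receptors, and Grin2c is the lowest of all, at -4.23.

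On the postsynaptic side, 23 of 25 scaffold and adhesion genes rose and 1 fell, with a median of 0.75. Nlgn1, the neuroligin of excitatory synapses, rose by 1.56 ± 0.09 and Homer1, which links metabotropic receptors to calcium stores, by 1.24 ± 0.07. Shank1 rose by 0.86 ± 0.06 and Dlg4, which encodes PSD-95, by 0.43 ± 0.09. The vesicle release machinery moved less: 17 of 26 rose, 4 fell, and the median was 0.31. Complexins, which clamp vesicle fusion, diverged, since Cplx2 rose by 0.93 ± 0.05 and Cplx1 fell by 0.55 (SE 0.03). Cplx1 ran from 442 to 485 CPM in IP and from 675 to 701 CPM in Input. Likewise Vamp2 rose by 0.62 ± 0.02 while Vamp1 fell by 1.37 (SE 0.09), and Syt1 rose by 0.22 ± 0.03 while Syt2 fell by 1.23 (SE 0.27). Vamp1 and Syt2 are known from fast-spiking inhibitory neurons, whose marker Pvalb kept 7.11% of its bulk level. The part of cell type in these falls was not tested.

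Ion channels of excitable membranes rose in the main. Of 8 sodium channel genes 7 rose and 0 fell, led by Scn2a (1.44 ± 0.05) and Scn8a (1.16 ± 0.05), the pore subunits of excitatory axons. Scn1a, the pore subunit most used by fast-spiking interneurons, rose by 0.54 ± 0.09. Of 8 calcium channel pore genes 6 rose and 0 fell, led by Cacna1c (1.31 ± 0.14) and Cacna1e (1.18 ± 0.08). Of 34 potassium and HCN channel genes, 22 rose, 6 fell and 6 did not pass. Kcnq3, a subunit of the M-current, rose by 1.52 ± 0.11 and Kcna2 by 1.27 ± 0.08. Kcnj10, the inward rectifier of astrocytes, fell by 4.82 (SE 0.20), and the Kv3 genes of fast-spiking cells, Kcnc2 and Kcnc1, fell by 1.61 (SE 0.12) and 0.72 (SE 0.07).

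Receptors for modulators were read family by family. Of 11 serotonin receptor genes 0 rose and 2 fell, namely Htr3a of interneurons by 4.81 and Htr1a by 0.59 (SE 0.16). Htr2a, at 6.16 CPM in IP and 4.99 CPM in Input at the median, did not pass. Of 12 dopamine and noradrenaline receptor genes, 2 rose, 3 fell and 7 did not pass. Adrb1 rose by 0.69 ± 0.10 and Drd1 fell by 0.48 (SE 0.16). Of 11 acetylcholine receptor genes, 5 rose, 4 fell and 2 did not pass. Chrm1 rose by 0.39 ± 0.05 while Chrna4 and Chrna5 fell by 0.83 (SE 0.12) and 3.25 (SE 0.67); Chrna5 is known from layer 6 neurons. Of 25 receptors for peptides and cannabinoids, 4 rose, 8 fell and 13 did not pass. Cckbr rose by 0.33 ± 0.04, Oxtr, the oxytocin receptor, fell by 1.01 (SE 0.34) and Crhr1 did not pass (adjusted p = 0.38).

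Neuropeptide genes went in both directions. Of 27 peptide and secreted factor genes, 10 rose and 14 fell. Besides Sst and Vip, the falls included Crh by 3.64 (SE 0.46) and Crhbp, the protein that binds its product, by 4.92 (SE 0.23), which are known from interneurons in cortex. Bdnf ran from 78.6 to 96.9 CPM in IP and from 21.1 to 25.9 CPM in Input, and Adcyap1, the precursor of PACAP, rose by 0.91 ± 0.08. Its receptor gene Adcyap1r1 fell by 1.58 (SE 0.10). Cck, made by pyramidal cells and interneurons alike, fell by 0.12 (SE 0.04), with 838 to 993 CPM in IP and 1002 to 1059 CPM in Input.

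Genes of the stress hormone axis were split. Both corticosteroid receptors rose, Nr3c2 (mineralocorticoid) by 1.21 ± 0.11 and Nr3c1 (glucocorticoid) by 0.38 ± 0.07. Nr3c2 ran from 20.9 to 24.1 CPM in IP and from 9.30 to 10.4 CPM in Input. Fkbp5, a cochaperone that glucocorticoids induce, rose by 0.60 ± 0.12 and Zbtb16, a further glucocorticoid-induced gene, by 1.15 ± 0.08. Tsc22d3, another target of the glucocorticoid receptor, fell by 0.99 (SE 0.08) and Hsd11b1, the enzyme that regenerates active corticosteroid, by 3.17 (SE 0.25). In all 5 of the 12 genes rose and 6 fell.

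In the cytoskeleton list, 19 of 26 rose and 6 fell. The kinesin-1 heavy chains, motors of axonal transport, diverged: Kif5b rose by 1.24 ± 0.06 and Kif5c by 0.95 ± 0.03, while Kif5a fell by 1.09 (SE 0.04), from 982 to 1084 CPM in Input to 436 to 513 CPM in IP. Map2, the microtubule protein of dendrites, rose by 0.87 ± 0.05 and Mapt, that of axons, by 0.68 ± 0.04. Of 16 RNAs known to travel into dendrites, 11 rose and 4 fell, with Psd3 (1.72 ± 0.06) and Fmr1 (1.03 ± 0.10) at the top and Bc1 at the bottom of the list. Actb, also a localized RNA, did not pass, at 2239 and 2218 CPM at the median.

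Noncoding RNAs of the nucleus were often lower. Of 14 nuclear and imprinted noncoding RNAs, 8 fell, all at least 2-fold, and 1 rose, with a median of -1.20. Snhg11 fell by 2.10 (SE 0.05), Miat by 2.04 (SE 0.12) and Meg3, an imprinted RNA of the nucleus, by 1.22 (SE 0.04). Malat1, the abundant RNA of nuclear speckles, did not pass, with 228 to 267 CPM in IP and 242 to 292 CPM in Input. Peg13, an imprinted transcript, rose by 0.42 ± 0.05. Over all genes annotated as lncRNA, 6.94% of 1872 were higher and 23.7% lower, compared with 28.7% and 29.1% of 15161 protein-coding genes. Without a stated strand setting, reads of an antisense RNA and its partner cannot be told apart.

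Among protein-coding genes with a mean of at least 5 CPM, those with longer exons were higher in IP. The median log2 fold change was -0.05 for the genes with the shortest exons (204 to 2048 bases of deposited exon length) and 0.36 for those with the longest (5441 bases and over), among 5 classes of equal size. Spearman's rho between length and log2 fold change was 0.29 across 11160 genes, which share libraries and are not independent replicates. Grin2b, with 24060 bases, is in the longest class. The part of length in the single results was not tested.

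Components of translation and of ion pumping were also followed. Of 38 initiation and elongation factor genes, 22 rose and 5 fell, with a median of 0.15. Eif3a, the largest subunit of the initiation factor that recruits the small ribosomal subunit, rose by 1.31 ± 0.07 and Eif4g3, a scaffold of the cap complex, by 1.05 ± 0.07. Eif4ebp2, the repressor of cap binding in neurons, fell by 0.57 (SE 0.11). Of 18 pump and metabolic genes, 8 rose and 4 fell. Atp2b1, a calcium pump of the plasma membrane, rose by 1.40 ± 0.04, and the enzymes Ckb and Ldhb fell by 0.57 (SE 0.03) and 0.61 (SE 0.03).

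Immediate early genes are switched on within minutes of neuronal activity, many through the transcription factor CREB, whose binding site contains the bases TGACGT. Of 22 immediate early and activity-regulated genes, 15 rose, 3 fell and 4 did not pass, with a median of 0.47. Besides Bdnf, Nr4a2 (1.62 ± 0.18), Homer1 (1.24 ± 0.07) and Egr4 (1.10 ± 0.07) were among the rises. Egr1 ran from 277 to 331 CPM in IP and from 208 to 242 CPM in Input, and rose by 0.46 ± 0.05. Arc, whose messenger RNA moves into dendrites, fell by 0.30 (SE 0.09), with 58.7 to 82.6 CPM in IP and 87.6 to 97.3 CPM in Input. Against the Input libraries of the other groups, the median of the list was 0.14, and Fos (-0.09), Npas4 (0.09) and Junb (0.07) did not pass. Dusp1, also on the list, changed sign in that comparison, with a lower level in NS IP.

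Whether the NS difference between fractions was unlike that of the other 4 groups was tested in the same fit. Of 18937 genes, 848 had a larger log2 fold change of IP over Input in NS than the mean of the other groups (4.48%), and 572 a smaller one (3.02%). With scaling to library totals alone, 643 were higher and 764 lower. For 1224 of these 1420 genes, the NS estimate also lay outside the range of the other 4 estimates. Of the activity-regulated genes, 9 of 22 were higher in NS, 0 were lower, and all 9 lay above each of the other 4 groups. Npas4, a neuronal transcription factor induced by calcium, had 16.5 to 20.4 CPM in NS IP and 9.24 to 16.5 CPM in NS Input. Its log2 fold change of 0.53 ± 0.15 in NS compared with -1.75 to -0.35 in the other groups, a difference from their mean of 1.34 ± 0.17 (adjusted p = 1.3e-07 by edgeR). Egr1 differed by 0.71 ± 0.05, Nr4a2 by 1.01 ± 0.20, Fos by 0.78 ± 0.12, Arc by 0.63 ± 0.10 and Egr4 by 0.58 ± 0.08. Btg2 (0.56 ± 0.12), Dusp1 (0.45 ± 0.07) and Junb (0.30 ± 0.05) were the other 3.

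These differences had parts in both fractions. In IP alone, 10 of the 22 genes were higher in NS than the mean of the other groups and 0 lower, where 7.6% of all tested genes were higher and 6.44% lower. In Input alone, 1 was higher and 5 lower, where 0.782% of all tested genes were higher and 0.771% lower. For Egr1 the IP part was 0.59 and the Input part -0.12, whereas for Arc they were 0.16 and -0.47. In the promoter table from RefSeq (GRCm38.p6), which gives 250 bases before and 50 after each gene start, 17 of the activity-regulated genes had an entry. In 10 of these at least 1 promoter held TGACGT on either strand, against 8.37% of all genes in the table. Counted by promoter, 12 of the 29 promoters of activity-regulated genes held it, against 7.51% of all 32851. The windows of 4 genes from the test above, taken only from promoters that hold these bases, show them in capitals, as a description only. Windows of the other genes in that test are not shown, and a link of these bases to the NS difference was not tested. In TGACGTCA the matches of both strands overlap:
Npas4, chr19:4990115-4990171, minus strand: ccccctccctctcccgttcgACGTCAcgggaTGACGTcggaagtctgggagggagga
Fos, chr12:85473804-85473849, plus strand: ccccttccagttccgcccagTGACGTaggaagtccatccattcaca
Dusp1, chr17:26508588-26508683, minus strand: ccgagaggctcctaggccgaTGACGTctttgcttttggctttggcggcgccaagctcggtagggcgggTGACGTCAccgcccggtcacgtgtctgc
Btg2, chr1:134079294-134079341, minus strand: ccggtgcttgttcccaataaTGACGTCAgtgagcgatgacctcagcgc
Each is written in the direction of its gene. Npas4 holds the bases on each strand in turn, Dusp1 and Btg2 hold the overlapping form, and Fos holds a single copy.

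Other gene groups differed from the mean of the other groups as well, so the activity-regulated genes were not alone. Of 18 pump and metabolic genes, 8 were higher in NS and 0 lower, and all 8 lay above each of the other 4 groups. Of 26 genes of the vesicle release machinery, 9 were higher and 0 lower, with 6 of the 9 outside the range of the other groups. Of 14 nuclear and imprinted noncoding RNAs, 5 were lower and 1 higher. Of 78 ribosomal protein genes, 56 were lower in NS and 0 higher, with 26 of the 56 outside the range of the other groups, whose own medians ran from -0.26 in ANH to 0.34 in SA:ANH. Of 13 mitochondrially encoded messenger RNAs 11 were lower in NS, and of 16 layer 5 extratelencephalic markers 8 were higher and 0 lower, 4 of the 8 above every other group. The median of the list was 0.88 in NS, 1.13 in SA, 0.76 in RES, 0.51 in ANH and 0.27 in SA:ANH. Bcl11b was higher by 0.35 ± 0.08 and lay above every other group, while Crym, a thyroid hormone binding protein, was higher by 0.22 ± 0.04 and lay within their range. Ppp1r1b, which encodes the dopamine-regulated phosphatase inhibitor DARPP-32, fell by 0.46 in NS and by 0.83 to 1.48 in the other groups, a difference of 0.73 ± 0.06. Nrip3 (0.55 ± 0.06), Cplx1 (0.33 ± 0.03) and Lamp5 (0.33 ± 0.04) were likewise above every other group. Npy fell more in NS than in any other group (-3.08, against -2.90 to -1.82).

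Some genes with very small adjusted p lay within the range of the other groups. Sst fell by 4.25 in NS, by 5.07 in SA and by 2.72 in RES, and the difference from the mean of the other groups was -0.62. The same held for Igfbp4 (1.59 in NS, 0.64 to 1.71 elsewhere), Snhg11 and Malat1. For Fabp4, whose NS Input level is given above, the difference was -7.24. The part of the fat signal in the rest of this comparison was not tested.

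**Figure D5:**
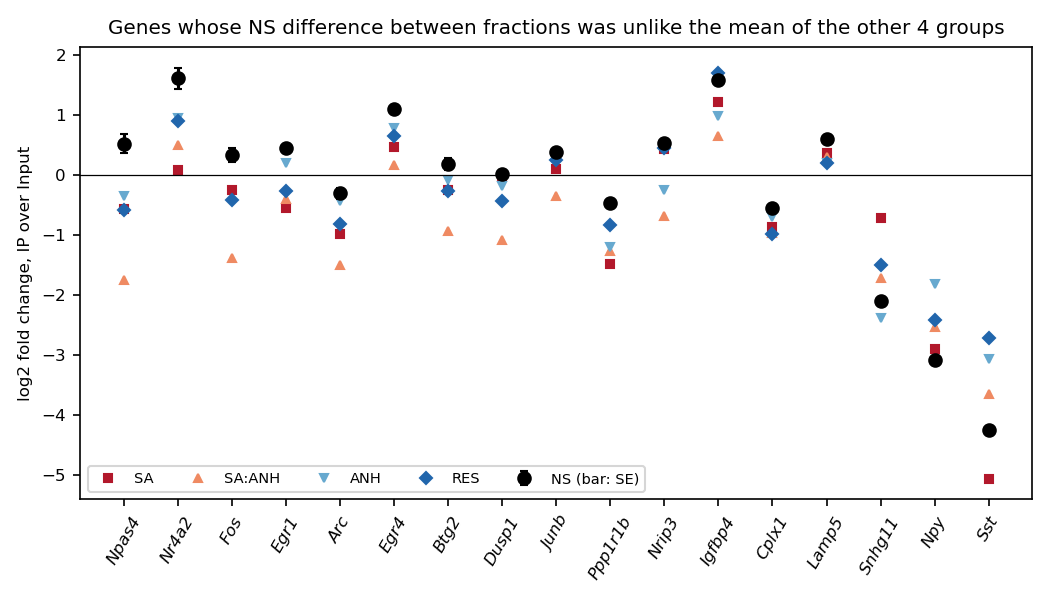
Log2 fold change of IP over Input (y axis) for 17 genes in NS (black, bars of 1 SE) and in SA, SA:ANH, ANH and RES (coloured). For Npas4, Nr4a2, Egr1 and Ppp1r1b the NS point lies above all 4 others, while for Sst, Igfbp4 and Snhg11 it lies among them.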

How the data were processed

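The 12 NS libraries (6 IP, 6 Input) were analysed in a fit with all 60. The authors deposited 1 table of expected counts for 55414 genes, of which 88.4% of values were whole within 1e-06. Tools listed, per the submitters' processing notes, are Bowtie2 2.2.3, TopHat2 2.0.13 and Trimmomatic 0.32, with the build mm10. The gene coordinates deposited with the counts are not those of mm10. The sources used here give neither the counting tool nor its strand setting. Counts were rounded and filtered (filterByExpr, minimum count 10), leaving 18937 genes, and scaled by TMM. edgeR 4.0.16 (R 4.3.3) quasi-likelihood tests compared the fractions in NS, and this difference with the mean of the same difference in the other 4 groups. Benjamini-Hochberg adjustment ran over all tested genes, with a threshold of 0.05. SE is the log2 fold change over the root of F. DESeq2 1.42.0 and limma 3.58.1 were alternatives. On simulated counts for NS IP against NS Input (18937 genes), 66% of 50 genes changed 1.5-fold and 84% of 50 changed 2-fold were recovered. Few genes were changed there, none with a low mean count, so these shares need not hold for the data. No pair of NS libraries was a repeat (chi-square per degree of freedom 7.03 to 16.0).

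Genes were named by rule: Rpl10a, the 15 largest rises and falls among genes with at least 10 CPM and fractions that did not overlap, list members with the highest or lowest log2 fold changes at 5 CPM or more, defining markers, and the 10 smallest adjusted p of the second comparison. Other list members were named after their values were seen. Some genes that meet the rule are not reported here. The gene lists and members were chosen with earlier results of these data known. Coordinates and Bc1 come from GENCODE M21 (GRCm38) by gene identifier, and promoters from RefSeq (GRCm38.p6).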

Additional observations from a re-analysis of the deposited data

Results flagged for a closer look

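The 394 groups of 6 values looked at include genes with a mean under 1 CPM in a fraction, which could not be flagged. Chance flags about 1 group in 20 of those that can be flagged. In 18 of the 394 groups, 1 library stood apart from the other 5 by Dixon's test.
In NS IP these were Bdnf in replicate 3 (78.6 CPM, nearest other 91.1), Dlg4 in replicate 1 (69.7 CPM, nearest other 57.3), Fmr1 in replicate 2 (39 CPM, nearest other 43.7), Grin2a in replicate 1 (118 CPM, nearest other 102). Further IP values that stood apart were Rprm in replicate 1 (51.2 CPM, nearest other 44.2), Shank1 in replicate 1 (443 CPM, nearest other 391), Vip in replicate 5 (4.7 CPM, nearest other 2.51), mt-Co3 in replicate 3 (18.7 CPM, nearest other 15.9). In NS Input they were Adcyap1 in replicate 3 (27.2 CPM, nearest other 24), Cacng4 in replicate 1 (17.4 CPM, nearest other 13.7), Egr1 in replicate 1 (242 CPM, nearest other 218), Etv1 in replicate 3 (59.5 CPM, nearest other 53.3), Meg3 in replicate 5 (224 CPM, nearest other 244). The other Input values were Mlc1 in replicate 2 (269 CPM, nearest other 248), Slc1a2 in replicate 3 (516 CPM, nearest other 478), Snhg11 in replicate 5 (289 CPM, nearest other 308), acetylcholine receptors in replicate 4 (280 CPM, nearest other 293), neuropeptides and secreted factors in replicate 6 (3999 CPM, nearest other 3905).

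The difference between fractions in NS, minus the mean of that difference in the other 4 groups, is listed here for 21 named genes. Each of the 21 passed the test of the difference itself. Other named genes that passed are not listed. On the log2 scale the difference was above 0 for Npas4 (1.34), Egr1 (0.71), Nr4a2 (1.01), Fos (0.78), Arc (0.63), Egr4 (0.58), Btg2 (0.56), Dusp1 (0.45). The same held for Junb (0.30), Bcl11b (0.35), Crym (0.22), Ppp1r1b (0.73), Nrip3 (0.55), Cplx1 (0.33), Lamp5 (0.33), Igfbp4 (0.45). It was below 0 for Npy (-0.66), Sst (-0.62), Snhg11 (-0.52), Malat1 (-0.94), Fabp4 (-7.24).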

How the results depend on the processing

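Counts of genes stayed within 1.5 times the reported ones under each alternative run. For NS IP against NS Input, RLE factors gave 4078 higher and 6008 lower and DESeq2 gave 4118 and 6060. The samples share only a replicate number: deviations of same-numbered NS libraries correlated at -0.0132 to 0.0223, and 1 of 6 correlated best with its own number. With a replicate block, 4577 genes were higher and 5416 lower, and with the block in the 12 NS libraries alone 4464 and 5077. For the comparison with the other groups, the replicate block gave 869 higher and 640 lower. Of 175 values of named genes, 163 kept direction and call throughout. Of the list medians, 25 stayed within the median SE of their list in each run tried, and 18 moved further in at least 1. RLE factors moved 5, library totals 8, and the Input libraries of the other groups 12. RLE factors shifted genes of at least 5 CPM by -0.05 at the median, which is more than list medians such as 0.01 and -0.02. The comparison with the Input libraries of the other groups was chosen after seeing the data. It reversed Fabp4 (2.76), Ucp1 (3.91), Dusp1 (-0.31), Fos (-0.0877) and Rps12 (-0.0211); the cause was not tested. On simulated counts for NS IP against NS Input (18937 genes), 66% of 50 genes changed 1.5-fold were recovered, so some differences of that size may go undetected. Few genes were changed in that simulation, none with a low mean count, whereas 10007 genes were called in the data. The share recovered need not hold for the data.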
